A study of Mus musculus with 12 samples.

Results

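The 34 genes described here make or handle sterols and fatty acids in the macrophage, and the measurement is the openness of the chromatin in and around them. They were chosen by name, as regulators of lipid synthesis, enzymes of cholesterol and fatty acid synthesis, and proteins that move or store the products. Open regions were taken from peak lists, 1 list per library. Peaks that overlapped or touched were merged across the 12 lists into 100374 regions, and the 76042 regions present in at least 2 lists were kept. Of these, 188 lay within 10 kb of the span of a member gene and are the member regions. Every gene had at least 1, the median was 5.0 and the highest number was 13, and no region lay near 2 members.

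Open chromatin was profiled by ATAC-seq, in which a transposase inserts adapters into accessible DNA, in the mouse macrophage line RAW264.7. The stable derivatives carried either Nur77, the orphan nuclear receptor encoded by Nr4a1, or green fluorescent protein (GFP), each under doxycycline control. All 4 groups received doxycycline at 1 µg/ml for 18 h, controls included. The groups were the Nur77 line given 500 ng/ml lipopolysaccharide (LPS, a bacterial cell wall component that activates macrophages) for 1 h, the Nur77 line without LPS, the GFP line given LPS for 1 h, and the GFP line without LPS, with 3 libraries each. Whether a line is a clone or a pool, and whether replicates were separate cultures, is not given in the labels, so p-values measure the spread between these libraries, which may be technical.

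Cholesterol is built from acetyl-CoA through mevalonate and squalene, and fatty acids from the same precursor through malonyl-CoA. The SREBP transcription factors, encoded by Srebf1 and Srebf2, switch on both pathways. The protein encoded by Scap escorts them out of the endoplasmic reticulum when sterols are low, and Insig proteins hold them back when sterols are high. In macrophages these pathways set membrane composition and the storage of cholesterol esters, and they are known to be remodelled after activation through Toll-like receptors.

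Lists held 36184 to 81467 peaks, and the background height of a list, derived from the grid of its fold values and used as a stand-in for depth, was between 0.402 and 1.45 reads. The lists of GFP LPS replicate 1 and Nur77 untreated replicate 2 had the lowest background heights. A region inside Nr4a1, at chr15:101270092-101272260 (mm10), was open in 6 of 6 lists of the Nur77 line and in 0 of 6 of the GFP line, where reads of the introduced copy and of the resident gene cannot be told apart. A region at Acod1, an LPS-induced gene, at chr14:103046297-103047818, was open in 6 of 6 lists with LPS and in 0 of 6 without. A region present in all 12 lists lay at an end of 5 of 5 macrophage markers, and of 0 of 3 markers of T cells, epithelium, adipocytes and hepatocytes, 1 of 3 of B cells (Cd79a) and 1 of 3 of fibroblasts (Col1a1).

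A library calls a region when it has a peak there. Because the lists differ in length, strength was compared only among the 26378 regions that all 12 lists called, where each library was ranked by the −log10 q value of its own peaks. The resulting percentile runs to 100 for the strongest region and has its middle at 50 in every library. It shows where a region stands relative to other open regions of the same library and not an amount of open chromatin. Of the 188 member regions, 76 (40.4%) were in all 12 lists, against 34.7% of all regions, and 112 were in fewer.

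Where RefSeq promoter sequences of the mm10 build were given, which was so for 26 of the 34 genes, the 250 bases before each start were searched on both strands for short motifs. Stretches of 8 promoters are shown as examples. Their genes hold the sterol regulatory element or clusters of the CCAAT box, or have a start that ranked lower after LPS. Others that do so are not shown, among them Mylip, Insig2 and the upstream start of Srebf1. Capitals mark the sterol regulatory element (TCACNCCAC) and the CCAAT box, which reads CCAAT on the printed strand and ATTGG on the other. In Fasn a CCAAT and an ATTGG share letters.
Hmgcs1: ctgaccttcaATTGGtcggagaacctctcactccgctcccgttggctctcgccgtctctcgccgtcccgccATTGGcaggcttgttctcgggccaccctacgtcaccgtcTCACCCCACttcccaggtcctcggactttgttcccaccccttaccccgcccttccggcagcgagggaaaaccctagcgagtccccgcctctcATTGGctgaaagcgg
Mvk: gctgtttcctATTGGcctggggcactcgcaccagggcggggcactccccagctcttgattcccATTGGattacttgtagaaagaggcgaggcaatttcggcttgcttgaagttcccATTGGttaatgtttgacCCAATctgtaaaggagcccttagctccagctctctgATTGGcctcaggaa
Mvd: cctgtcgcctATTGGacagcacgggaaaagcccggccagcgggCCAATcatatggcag
Idi1: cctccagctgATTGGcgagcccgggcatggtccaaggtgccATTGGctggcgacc
Fasn: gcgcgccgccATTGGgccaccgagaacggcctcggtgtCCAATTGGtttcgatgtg
Srebf1, start inside the gene: gcggctgctgATTGGccatgtgcgc
Sc5d: ccggctgctgATTGGccggctgcct
Soat1: cgcaggaccaCCAATggcatcccgg

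The Hmgcs1 stretch lies at chr13:119690104-119690320 on the plus strand and the Mvk stretch at chr5:114444086-114444268 on the plus strand. Those of Idi1 (chr13:8885551-8885605, plus), Mvd (chr8:122443435-122443492, minus), Fasn (chr11:120824592-120824647, minus) and Srebf1 (chr11:60210487-60210511, minus) also fell inside regions called in all 12 lists, as did those of Sc5d (chr9:42264310-42264334, minus) and Soat1 (chr1:156474344-156474368, minus). The CCAAT box, which is bound by the factor NF-Y, was present in 21 of the 36 member promoters (58.3%), against 33.8% of all 32851 promoters. The GC box (GGGCGG, bound by Sp1-type factors) was present in 22 (61.1%), against 32.7%. The sterol regulatory element was present in 1, Hmgcs1, starting at base −137, which is 2.78% against 1.05% of all promoters. The Nur77 element (AAAGGTCA) was present in 0, against 1.34%, and the AP-1 element (TGANTCA) in 1, that of Dhcr7, which is 2.78% against 6.75%. The motifs were matched independently, so a base can belong to more than 1 of them, and several genes have more than 1 promoter in the table. These are letter matches and give no occupancy.

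The start region of each gene was the region nearest its annotated start, or, for the 8 genes without a promoter sequence (Fdps, Fdft1, Sqle, Scd1, Scd2, Lpl, Npc1 and Fads1), the most prominent region within 1000 bp of either end of the gene. All 34 start regions were called in all 12 lists. Their mean percentile over the 12 libraries was above 90 in 14 genes, above 80 in 22 and below 50 in 5. Where several regions lay equally near a start, the most prominent was taken, so these values are partly set by the choice. Of all regions within 1000 bp of a gene end, 71.1% were in all 12 lists, and the median percentile of those was 68.65. For the 64 member regions at gene ends these values were 70.3% and 78.7.

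Among the regulators, the start regions of Insig1 (97.2 ± 1.2, SD, n = 12 libraries) and Srebf2 (95.4 ± 0.85) were above percentile 90 in every library. Those of Insig2 (89.3 ± 2.9), Mylip, which encodes a ubiquitin ligase for lipoprotein receptors (84.8 ± 4.7), and Srebf1 (82.5 ± 6.3) followed, and Scap stood at 67.3 ± 5.8. The ranges over libraries overlapped between neighbours in this order, except that the lowest Srebf2 library (94.0) lay above the highest Insig2 library (92.05).

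All mevalonate enzymes but Pmvk had strong start regions. Fdps (97.9 ± 1.1), Hmgcs1 (97.5 ± 0.64), Mvd (96.1 ± 1.1), Idi1 (95.9 ± 1.4) and Mvk (95.9 ± 1.3) all stayed above 92 in all 12 libraries, and their ranges overlapped. Pmvk, the kinase that follows Mvk in the pathway, stood apart at 49.5 ± 8.5, with libraries between 29.4 and 61.3. The median position of its summit was −2568 bp from the annotated start.

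From squalene to cholesterol the start regions spread more widely. Sqle, squalene epoxidase (92 ± 2.5), Dhcr7, which carries out the last step (90.1 ± 3.2), Lss, lanosterol synthase (86.5 ± 1.8), and Cyp51 (80.4 ± 3.6) lay above Sc5d (60.5 ± 8.9), Fdft1, squalene synthase (59.4 ± 9.6), and Nsdhl (52.4 ± 9). The Fdft1 region also overlapped Ctsb and the Nsdhl region Cetn2. Inside Fdft1, 2994 bp from an end of the gene, another region in all 12 lists stood at 95 ± 1.5. With no strand given, which end of Fdft1 holds its start is not known here.

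All 4 fatty acid synthesis genes had strong start regions. Acss2, which makes acetyl-CoA from acetate, had a mean percentile of 97.7 ± 0.49, Fasn, fatty acid synthase, 96 ± 2, Acaca, acetyl-CoA carboxylase, 95.2 ± 1.9, and Acly, which makes acetyl-CoA from citrate, 91.2 ± 2. For Acaca the region lay 14480 bp from the start in the promoter table. The Fasn region also overlapped Ccdc57.

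The enzymes that lengthen and desaturate fatty acids differed widely among themselves. Scd2, a stearoyl-CoA desaturase (89.3 ± 2.2), Fads2 (87.1 ± 3.6) and Fads1 (75.2 ± 5) were high, while Scd1, a paralogue of Scd2, was at 48 ± 15 and Elovl6, which elongates palmitate, at 23.4 ± 10. Among handling and storage genes, Npc2, which carries cholesterol in the lysosome, had the strongest start region of all 34 genes (99.6 ± 0.3). Its partner Npc1 was at 87.9 ± 2.6, Soat1, which esterifies cholesterol, at 64.3 ± 6.4 and Plin2, a lipid droplet coat protein, at 59.8 ± 9.6. Lpl, lipoprotein lipase (21.2 ± 6.4), and Apoe (7.33 ± 4.3) were the lowest, and the summit of the Apoe region lay at a median of −2086 bp from the annotated start. The Npc2 region also overlapped Isca2.

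**Figure D1:**
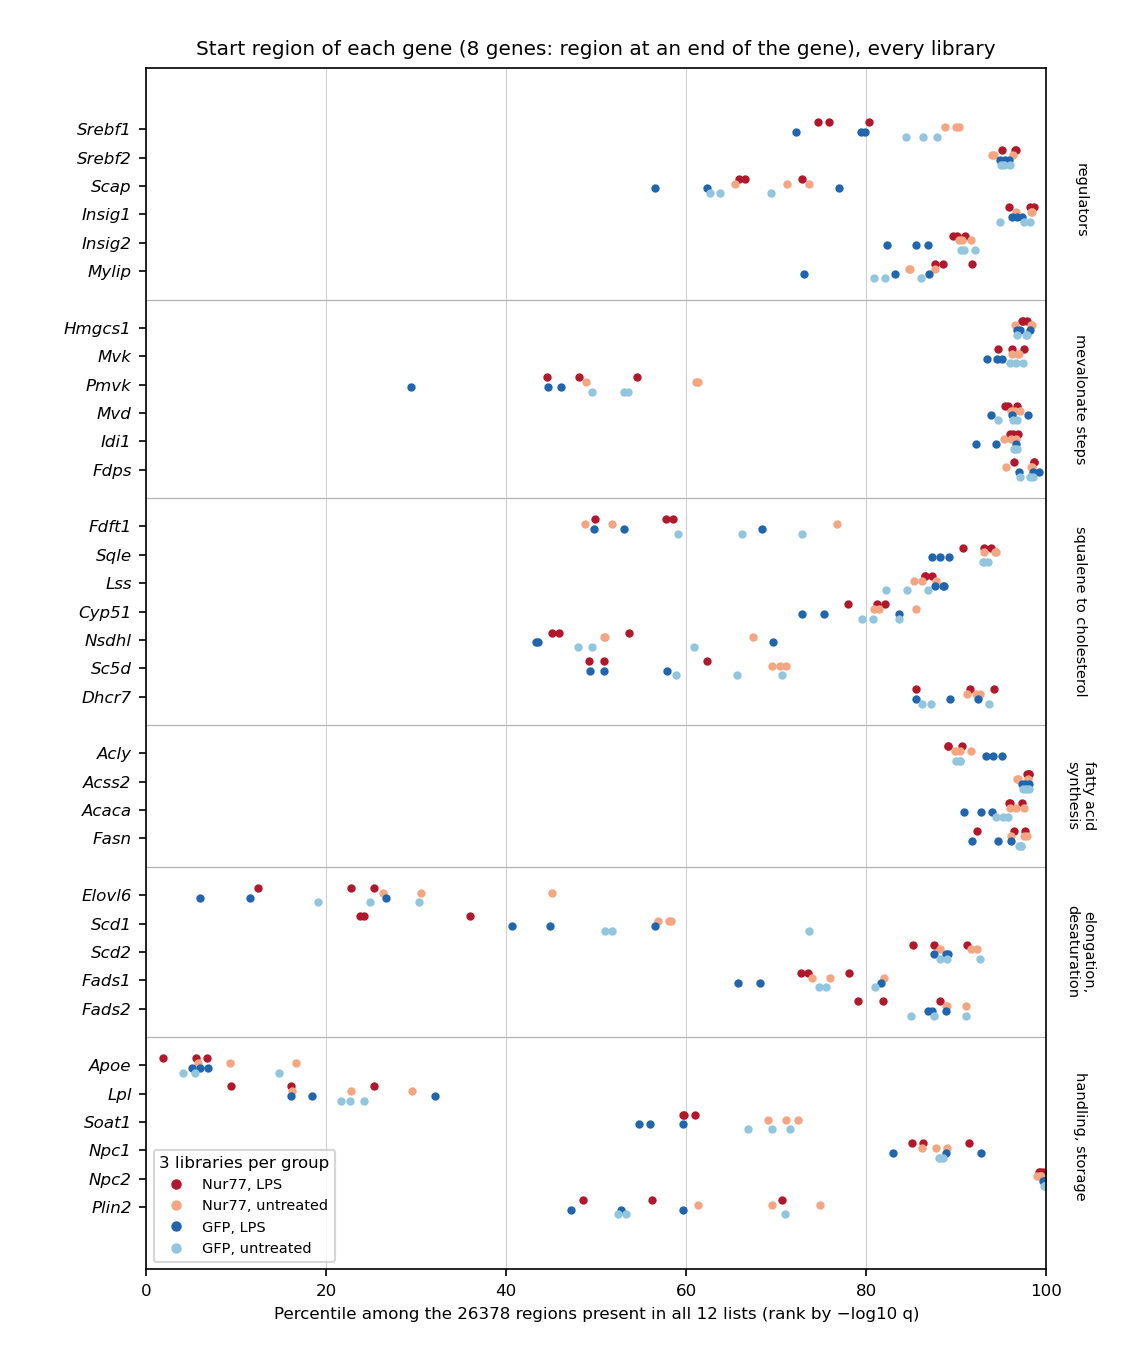
Percentile of the start region of each of the 34 genes (x axis, rank by −log10 q among the 26378 regions in all 12 lists), 1 point per library, coloured by group and ordered by role (y axis). The mevalonate genes other than Pmvk lie above 92 in every library, whereas Apoe, Lpl and Elovl6 lie at the low end.

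The first comparison asked what 1 h of LPS did to these regions in each line. After LPS the median member region stood lower in the ranking. Their median percentile was 61.0, 63.6 and 60.0 in the Nur77 LPS libraries, against 70.4, 73.0 and 69.6 in the untreated Nur77 libraries. In the GFP line it was 62.9, 59.2 and 58.0 with LPS, against 72.4, 70.4 and 68.3 without. The groups did not overlap in either line. The typical single region moved less than this median of the set. The median difference of group means, LPS minus untreated, was −1.917 percentile points in the Nur77 line and −2.314 in the GFP line. Over all 26378 regions it was −0.64 and −1.035. The role medians did not all move down with the median of the set. The median of the 9 regulator regions was 80.4, 75.9 and 75.5 in the Nur77 line with LPS, against 84.8, 87.6 and 84.9 without, and 76.9, 79.8 and 72.2 in the GFP line with LPS, against 86.1, 80.8 and 82.1 without. The median of the 11 mevalonate regions was higher in the GFP line with LPS, at 92.1, 89.6 and 92.8, against 87.1, 83.7 and 87.6 without. In the Nur77 line these groups overlapped (87.7, 92.2 and 84.4 with LPS, against 90.8, 87.6 and 87.4 without). A median of 11 regions is the value of a single region in each library. In the Nur77 LPS libraries it equals, to the digits given, the value of the region over Mvd and Cyba described below. Most of the 11 regions did not rise. By the sign of the estimate in the fit described below, 7 of the 11 were lower with LPS in each line, whether or not they passed its threshold. The median difference of their group means was −0.55 percentile points in the Nur77 line and −2.025 in the GFP line. The mean of 44 of the 76 regions was lower with LPS in both lines, and that of 11 was higher in both. The count for both lines was not made over all regions. By the sign of the estimate alone in the same fit, 48 of the 76 were lower in the Nur77 line and 60 in the GFP line. Over all 26378 regions these counts were 14398 and 15060.

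Region by region, percentiles were turned into normal scores and fitted with limma over all 26378 regions and 12 libraries, with Benjamini-Hochberg adjustment over all of them and a threshold of 0.05. In the Nur77 line 10 of 76 member regions fell (13.2%), against 6% of all regions, and 1 rose (1.32%), against 8.58%. In the GFP line 13 fell (17.1%), against 8.57% of all regions, and 3 rose (3.95%), against 10.7%. The median change of the member regions was −0.07 normal scores in the Nur77 line and −0.13 in the GFP line, beside −0.03 and −0.05 over all regions. Without Nur77 untreated replicate 2, 6 fell in the Nur77 line, and without GFP untreated replicate 1 or 2, 8 or 7 fell in the GFP line. In all, 17 regions of 13 genes fell in at least 1 line, 6 of them in both, and 4 rose in 1 line. These joint counts were not made over all regions.

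Most of the lower regions lay away from the ends of genes. Of 31 member regions farther than 1000 bp from an end of any gene in the gene table, 7 fell in the Nur77 line (22.6%), against 6.81% of all such regions, and 9 in the GFP line (29.0%), against 8.29%. Of the 45 at gene ends, 3 fell in the Nur77 line (6.67%), against 4.70%, and 4 in the GFP line (8.89%), against 9.01%, which is close to the background. Starts inside a gene count as away from its ends, among them the Insig2 start region and the inner start of Srebf1.

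**Figure D2:**
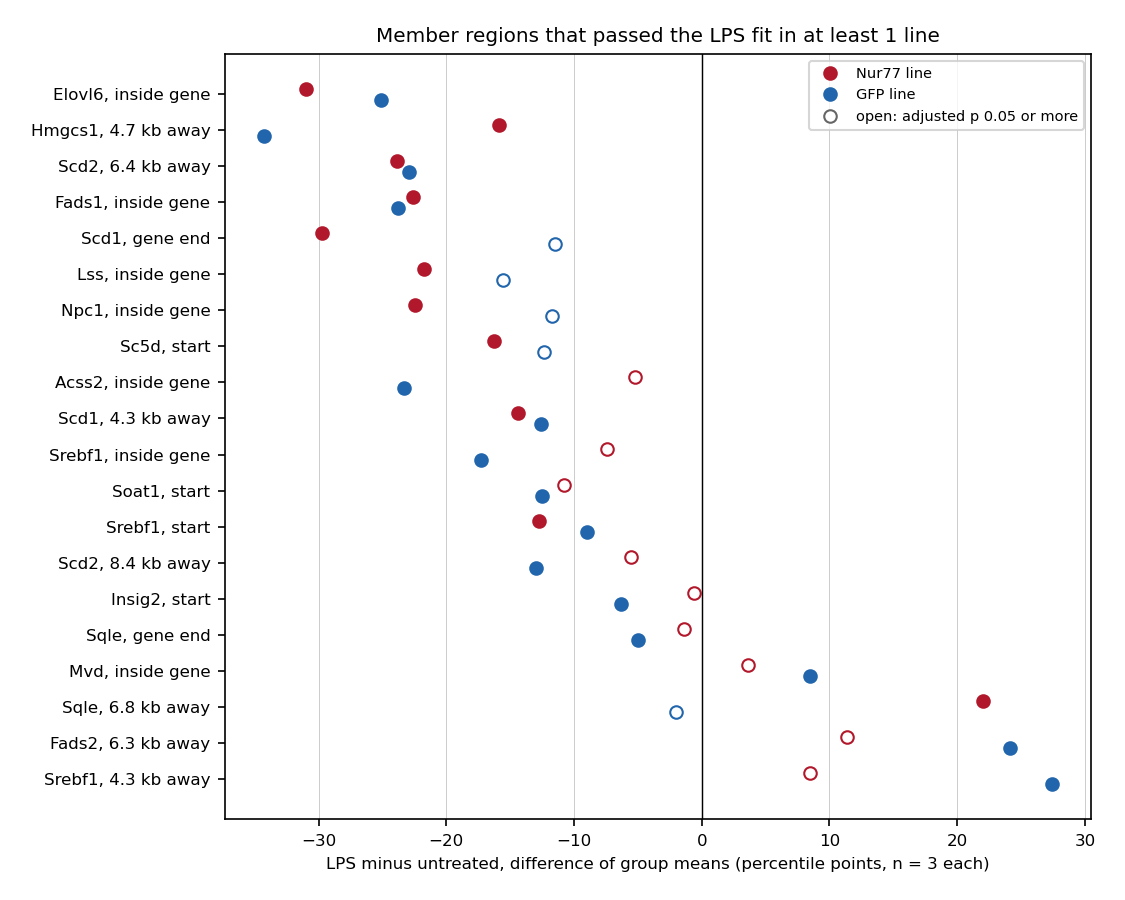
Difference of group means, LPS minus untreated, in percentile points (x axis, n = 3 libraries per group) for 20 of the 21 member regions that passed the limma fit in at least 1 line (y axis), in the Nur77 line (red) and the GFP line (blue). Filled points passed the threshold. The 16 regions at the top fell, and the 4 at the bottom rose in 1 line.

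By count, the largest set of lower regions belonged to the genes that lengthen and desaturate fatty acids. There 5 of 16 regions fell in the Nur77 line and 5 in the GFP line (31.25% each, against 6% and 8.57% of all regions). The clearest lay between Scd2 and Scd1. A region 6377 bp beyond Scd2, at chr19:44313241-44315655, stood at 64.7, 56.3 and 60.4 in Nur77 LPS libraries, against 84.1, 85.4 and 83.4 in untreated Nur77 libraries. The GFP line gave 59.7, 58.8 and 57.5 with LPS, against 82.7, 82.8 and 79.3 without. Every LPS library was below every untreated one. The normal score fell by 0.74 ± 0.11 (SE) in the Nur77 line (limma, adjusted p = 1.1e-05) and by 0.68 ± 0.11 in the GFP line (adjusted p = 3e-05).

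A region 4299 bp from Scd1, at chr19:44386853-44390151, behaved alike. It stood at 82.4, 78.9 and 79.8 in Nur77 LPS libraries, against 94.8, 95.1 and 94.5 in untreated Nur77 libraries, and the normal score fell by 0.77 ± 0.11 (limma, adjusted p = 3.7e-06). The GFP line gave 69.6, 76.7 and 79.2 with LPS, against 87.8, 89.5 and 85.97 without, and the score fell by 0.48 ± 0.11 (adjusted p = 0.0013). The LPS calls on both regions held in every alternative run.

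The region at the end of Scd1 itself, at chr19:44407244-44408866, stood at 36.0, 23.7 and 24.2 in Nur77 LPS libraries, against 58.0, 56.8 and 58.3 in untreated Nur77 libraries (limma, adjusted p = 0.0011). Percentiles of 56.5, 40.7 and 44.8 were found in the GFP line with LPS, against 73.7, 51.8 and 50.97 without. Those GFP groups overlapped and the difference did not pass (adjusted p = 0.22). On the other side of Scd2, 8427 bp from the gene at chr19:44280390-44285249, percentiles in the GFP line were 73.1, 82.5 and 75.8 with LPS, against 91.4, 88.2 and 90.7 without (adjusted p = 0.0005). In the Nur77 line that region stood at 82.9, 88.5 and 86.5 with LPS, against 91.1, 92.2 and 91.2 without, and missed the threshold (adjusted p = 0.074). The region at the Scd2 end passed neither LPS fit.

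**Figure D3:**
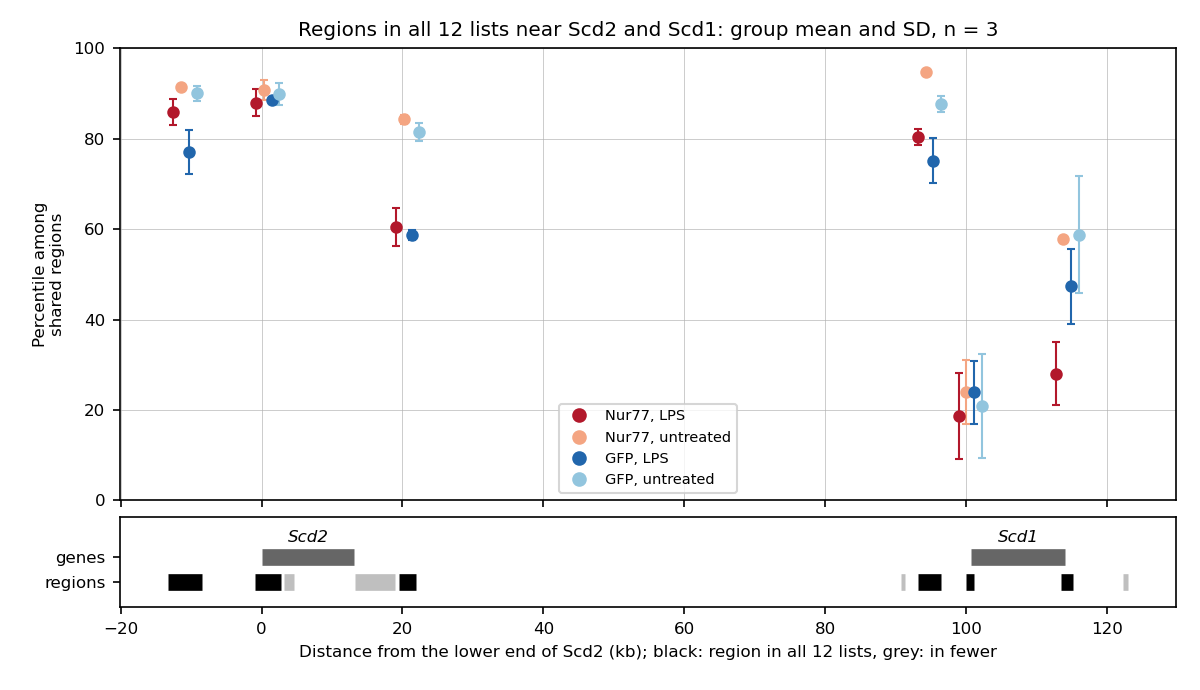
Percentile among shared regions (y axis, group mean with SD, n = 3 libraries) of the 6 regions in all 12 lists near Scd2 and Scd1, placed by distance from the lower end of Scd2 in kb (x axis, points of a region offset sideways for clarity). The lower strip shows the genes and regions, with regions in fewer lists in grey. The regions 6377 bp from Scd2 and 4299 bp from Scd1 are lower with LPS in both lines, whereas the one at the Scd2 end stands near 90 in all 4 groups.

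Inside Elovl6, at chr3:129612285-129613664, the percentiles were 26.0, 6.73 and 24.2 in Nur77 LPS libraries, against 39.5, 64.2 and 46.1 in untreated Nur77 libraries (limma, adjusted p = 0.0021). GFP percentiles were 23.7, 12.9 and 19.8 with LPS, against 42.6, 45.1 and 44.1 without (adjusted p = 0.012). The groups did not overlap in either line, and the GFP call was lost without GFP LPS replicate 2 (adjusted p = 0.066).

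Inside Fads1, which makes highly unsaturated fatty acids, a region at chr19:10190533-10191915 stood at 20.6, 30.3 and 27.5 in Nur77 LPS libraries, against 40.5, 55.4 and 50.5 in untreated Nur77 libraries (limma, adjusted p = 0.031). The GFP line gave 17.4, 14.7 and 22.5 with LPS, against 50.8, 50.3 and 24.9 without (adjusted p = 0.011). Every LPS library was below every untreated one in its line. The Nur77 call was lost without untreated replicate 2 (adjusted p = 0.11) or 3 (0.086) or LPS replicate 1 (0.13) or 3 (0.068) of that line and without both lists of lowest background height (0.087), and the GFP call without untreated replicate 1 (0.077) or 2 (0.08). Next to Fads2, 6323 bp away at chr19:10107826-10108821, a region rose in the GFP line, to 62.9, 49.7 and 45.5 with LPS, against 23.3, 32.8 and 29.4 without (limma, adjusted p = 0.011). Without GFP untreated replicate 1 or GFP LPS replicate 1 that call was lost (adjusted p = 0.059 and 0.086), as it was without both lists of lowest background height (0.068).

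Of the 9 regulator regions, 1 fell in the Nur77 line (11.1%, against 6% of all regions) and 3 in the GFP line (33.3%, against 8.57%). Srebf1, the regulator most tied to fatty acid synthesis, was the only regulator with a region that fell in the Nur77 line. The region over its upstream start, at chr11:60219419-60224153, stood at 80.4, 75.9 and 74.6 in Nur77 LPS libraries, against 88.8, 90.4 and 90.01 in untreated Nur77 libraries (limma, adjusted p = 0.00073). In the GFP line it stood at 79.4, 79.8 and 72.2 with LPS, against 86.3, 87.9 and 84.4 without (adjusted p = 0.023). The groups were separate in both lines. The GFP call was lost without GFP untreated replicate 1 (adjusted p = 0.061) or 2 (0.1) or GFP LPS replicate 3 (0.13), and with no variance trend (0.056).

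Over the start inside Srebf1, at chr11:60208492-60211606, percentiles in the GFP line were 46.6, 70.3 and 56.5 with LPS, against 75.3, 76.4 and 73.5 without (limma, adjusted p = 0.008), and the call was lost without GFP LPS replicate 1 (adjusted p = 0.08). A region 4313 bp from Srebf1, inside Rai1 at chr11:60192172-60194771, moved the other way. It stood at 32.1, 31.1 and 26.1 in GFP LPS libraries, against 5.15, 0.355 and 1.59 in untreated GFP libraries (adjusted p = 0.00034). In the Nur77 line it stood at 8.33, 5.25 and 17.6 with LPS, against 1.03, 3.96 and 0.794 without, and missed the threshold (adjusted p = 0.069).

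The start region of Insig2 stood at 82.3, 85.5 and 86.8 in GFP LPS libraries, against 90.6, 90.9 and 92.1 in untreated GFP libraries (limma, adjusted p = 0.024), and between 89.7 and 91.7 in all 6 Nur77 libraries. The GFP call was lost without GFP untreated replicate 2 (adjusted p = 0.061) or 3 (0.092) or GFP LPS replicate 1 (0.098), and without both lists of lowest background height (0.063). The start regions of Srebf2, Scap, Insig1 and Mylip passed neither LPS fit.

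**Figure D4:**
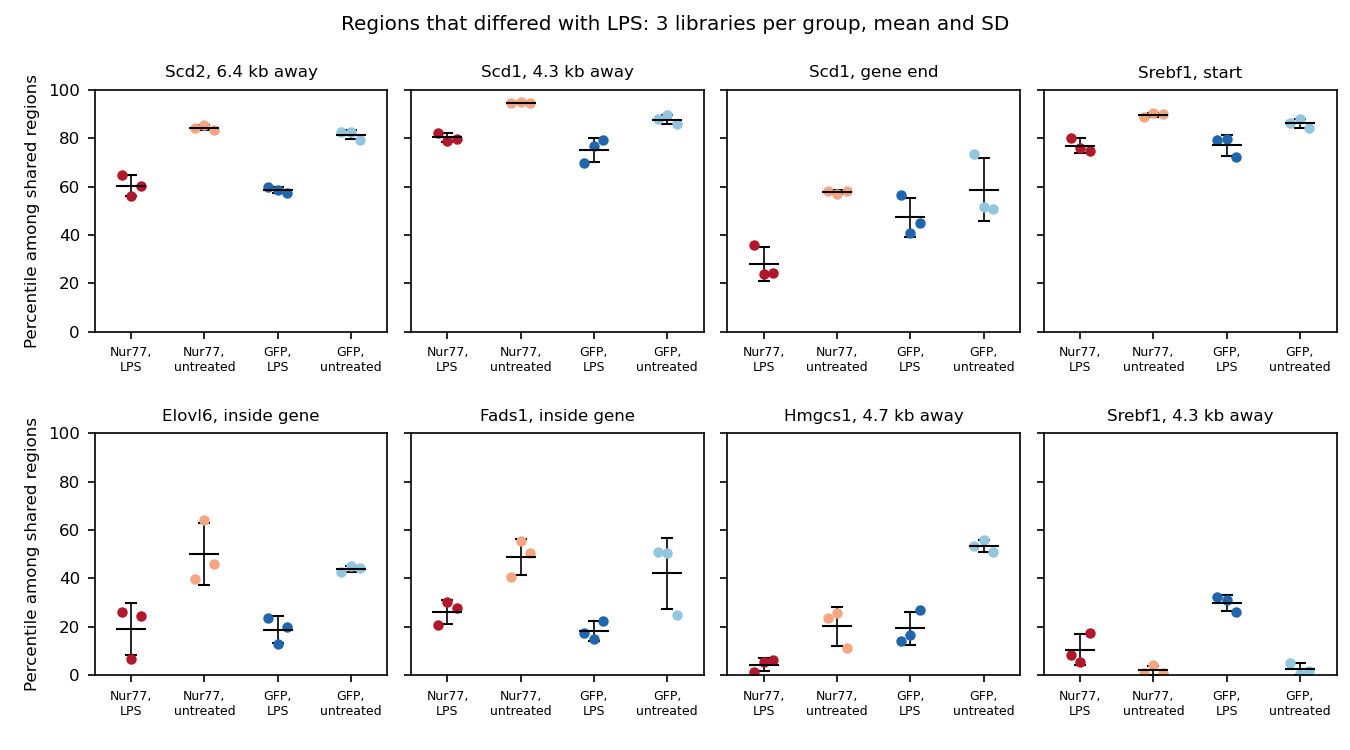
Percentile among shared regions (y axis) in each library (points) with the group mean and SD (black, n = 3) for 8 regions that passed an LPS fit, by group (x axis). LPS libraries are below untreated ones in 7 panels in at least 1 line, and above them in the panel of the region 4.3 kb from Srebf1.

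Of the mevalonate genes, Hmgcs1, which makes HMG-CoA, had a region that fell in both lines, 4733 bp away inside Nim1k at chr13:119712993-119714136. It stood at 1.14, 5.25 and 6.40 in Nur77 LPS libraries, against 23.6, 25.8 and 11.03 in untreated Nur77 libraries (limma, adjusted p = 0.0056). The GFP line gave 14.2, 16.6 and 27.0 with LPS, against 53.5, 56.0 and 50.97 without (adjusted p = 0.0033). The Nur77 call was lost without Nur77 LPS replicate 1 (adjusted p = 0.056). The start region of Hmgcs1, whose sequence with the sterol regulatory element is printed above, stayed between 96.5 and 98.4 in all 12 libraries.

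A region that overlaps both Mvd and Cyba, where Cyba encodes a subunit of the phagocyte oxidase, at chr8:122429278-122434874, rose in the GFP line, to 93.01, 89.7 and 92.8 with LPS, against 86.3, 82.0 and 81.6 without (limma, adjusted p = 0.0062). In the Nur77 line it stood at 87.7, 92.2 and 84.4 with LPS, against 85.2, 83.7 and 84.6 without, groups that overlapped (adjusted p = 0.33).

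Between squalene and cholesterol, 2 of 12 regions fell in the Nur77 line (16.7%, against 6% of all regions) and 1 in the GFP line (8.33%, against 8.57%, which is at the background). The start region of Sc5d, a sterol desaturase, stood at 49.2, 62.3 and 50.9 in Nur77 LPS libraries, against 69.6, 71.1 and 70.4 in untreated Nur77 libraries (limma, adjusted p = 0.023). A region inside Lss, at chr10:76542267-76543272, stood at 20.6, 16.9 and 17.6 in Nur77 LPS libraries, against 39.5, 52.3 and 28.6 without LPS (adjusted p = 0.011). The Sc5d call was lost without any untreated Nur77 library (adjusted p = 0.05 to 0.059) and without Nur77 LPS replicate 1 (0.11) or 3 (0.094), and the Lss call without Nur77 untreated replicate 2 (0.065) and without both lists of lowest background height (0.051).

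The Sqle gene-end region, at chr15:59313862-59317203, stood at 87.3, 88.2 and 89.1 in GFP LPS libraries, against 92.9, 93.5 and 93.03 in untreated GFP libraries (limma, adjusted p = 0.035). These groups were separate, but the call was lost without any 1 of those 6 libraries (adjusted p = 0.052 to 0.11), without both lists of lowest background height (0.055), with no variance trend (0.065) and with the background covariate (0.053). A region 6788 bp from Sqle, inside Washc5 at chr15:59337981-59339365, rose in the Nur77 line, to 54.7, 65.0 and 59.6 with LPS, against 39.5, 38.7 and 35.0 without (adjusted p = 0.007). Without Nur77 LPS replicate 2 it missed the threshold (adjusted p = 0.053).

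Among handling genes, 1 of 18 regions fell in the Nur77 line (5.56%, against 6% of all regions) and 2 in the GFP line (11.1%, against 8.57%). These shares are near the background. Those described here lay at Soat1 and Npc1. The Soat1 start region stood at 54.7, 55.9 and 59.7 in GFP LPS libraries, against 66.8, 71.5 and 69.5 in untreated GFP libraries (limma, adjusted p = 0.04). The call was lost without GFP untreated replicate 1 (adjusted p = 0.056), 2 (0.14) or 3 (0.098) or GFP LPS replicate 1 (0.097) or 2 (0.091), with the strongest 20000 peaks (0.066), without both lists of lowest background height (0.061) and with background height as a covariate (0.061). A region inside Npc1 stood at 47.2, 37.2 and 39.3 in Nur77 LPS libraries, against 58.0, 78.6 and 54.4 in untreated Nur77 libraries (limma, adjusted p = 0.0071). That call was lost without Nur77 untreated replicate 2 (adjusted p = 0.092) and without both lists of lowest background height (0.074).

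The fatty acid synthesis genes had 1 such region among 10 in the GFP line (10%, near the 8.57% of all regions) and 0 in the Nur77 line. Inside Acss2, at chr2:155540759-155541799, percentiles were 5.12, 7.55 and 7.57 in GFP LPS libraries, against 44.8, 21.5 and 23.8 in untreated GFP libraries (limma, adjusted p = 0.009), and the call was lost without GFP untreated replicate 1 (adjusted p = 0.09).

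Fasn stood out in its calls. Besides the start region, 7 weaker regions lay inside the gene, between its start and its far end. Of the 21 possible calls in a group, Nur77 LPS libraries made 0 and untreated Nur77 libraries made 7, 2 and 5 in replicates 1, 2 and 3. GFP LPS libraries made 0, 0 and 1, against 4, 4 and 2 in untreated GFP libraries. Together these were 1 of 42 calls with LPS (2.4%), against 24 of 42 without (57.1%). A region needed a peak in at least 2 lists to be kept, and 6 of the 7 had no call in an LPS library and so were kept through untreated libraries alone. Their absence with LPS is therefore partly set by how they were found.

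Across the 21 other genes with partly called regions inside them, the shares were 39.0% with LPS and 42.6% without. Leaving out the 2 lists of lowest background height gave 1 of 35 calls inside Fasn with LPS, against 22 of 35 without. The peaks behind these calls were weak, at percentiles of 1.71 to 30.8 of their own lists with a median of 9.53. The start region of Fasn stayed between 91.8 and 97.9 among shared regions in all 12 libraries. The block was singled out after its values were seen, and only 2 of its 7 regions separated the groups within a line, so no test was made for it as a whole.

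**Figure D5:**
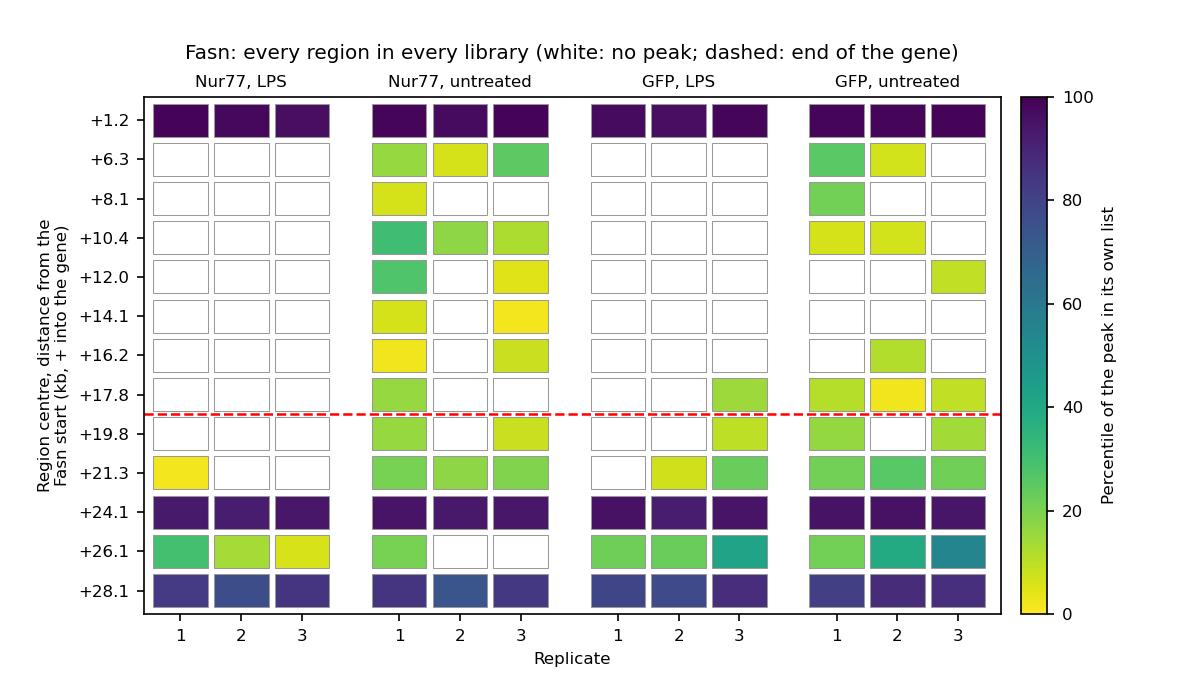
Calls at the 13 Fasn regions (y axis, distance of the region centre from the Fasn start in kb, positive into the gene) in each of the 12 libraries (x axis, by group and replicate). Colour gives the percentile of the peak in its own list and white means no peak. The 7 regions between the start and the dashed gene end hold 1 call in the 6 LPS libraries and 24 in the 6 untreated libraries.

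Over all member regions, calls that separated the groups (3 of 3 libraries against 0 of 3) were few. In the Nur77 line LPS libraries lost 3 of 188 (0.46% of all regions did so) and gained 1 (1.94%), and in the GFP line they lost 2 (1.02%) and gained 1 (1.96%). The losses in the Nur77 line were both Fasn regions at chr11:120813356-120814922 and chr11:120816735-120819703 and a region 3648 bp from Fads2 inside Fads3. The Fads2 region was called at percentiles of 20.5, 22.0 and 15.8 of their lists in untreated Nur77 libraries. With a −log10 q of at least 5 the second Fasn region, and with lists of equal length the Fads2 region, no longer separated the groups. The gain was a region inside Dhcr7 at chr7:143843762-143844173, called at list percentiles of 40.8, 42.5 and 36.9 in Nur77 LPS libraries.

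In the GFP line the losses were a region inside Acaca at chr11:84351062-84351737, called at list percentiles of 25.7, 26.2 and 25.3 in untreated GFP libraries, and 1 inside Elovl6 at chr3:129573573-129573960, at 46.3, 41.9 and 43.2. The gain was a region inside Npc2 on chromosome 12 at 42.4, 46.5 and 60.0 in GFP LPS libraries. The Elovl6 region was called in untreated GFP libraries only, and the Dhcr7 and Npc2 gains in LPS libraries only. These passed the filter of at least 2 lists through those libraries alone, so their absence elsewhere is partly set by how they were found. With 3 libraries against 3 an exact test cannot go below p = 0.1, so all these losses and gains are descriptions. Totals depended on single lists. In the Nur77 line they were 12 without untreated replicate 2, 7 without untreated replicate 1 and 10 without LPS replicate 1, and the GFP totals were 13 when LPS replicate 3 was left out and 7, 7 and 6 when untreated replicate 1, 2 or 3 was.

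When both lines were pooled, 6 LPS libraries against 6 untreated, two-sided Fisher's exact tests with Benjamini-Hochberg adjustment called 0 of the 45 member regions tested and 0 of 20292 in all. At an unadjusted p under 0.05, 3 member regions were called less often with LPS and 0 more often, against 300 and 1129 of all regions. The 3 were both Fasn regions above and the Fads2 region (exact p = 0.015 each, adjusted p = 0.22). Both Fasn regions were kept through untreated lists alone.

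The next comparison asked what induced Nur77 did in place of GFP. Npc2, the only member on chromosome 12, was kept apart here, because 42.9% of the 1054 shared regions of that chromosome were lower in the Nur77 line without LPS and 47.7% with LPS. Without LPS, the limma fit found 1 of the 72 other shared member regions higher in the Nur77 line (1.39%), against 3.2% of all regions, and 3 lower (4.17%), against 3.65%. With LPS it found 2 higher (2.78%), against 3.34%, and 4 lower (5.56%), against 4.15%. These shares are near the background. The totals of 4 and 6 rested on single libraries, and so did their balance. Without LPS, leaving out GFP untreated replicate 3 gave a total of 2, and leaving out Nur77 untreated replicate 3 gave 1, which was higher in the Nur77 line. With LPS it was 10 without Nur77 untreated replicate 2 (6 higher and 4 lower), 1 without GFP LPS replicate 3, 2 without Nur77 LPS replicate 2 or 3, and 3 without Nur77 LPS replicate 1 or Nur77 untreated replicate 3.

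Of single regions, the one inside Lss was lower in the Nur77 line in both states. With LPS it stood at 20.6, 16.9 and 17.6 in Nur77 libraries, against 42.2, 42 and 58.0 in GFP libraries, and the normal score fell by 0.84 ± 0.18 (SE; limma, adjusted p = 0.0019). This call held in the 22 of 23 alternatives in which the region could be fitted. Without LPS it stood at 39.5, 52.3 and 28.6 in Nur77 libraries, against 71.9, 57.3 and 59.6 in GFP libraries (adjusted p = 0.029). That call was lost without GFP untreated replicate 1 (adjusted p = 0.18) or 3 (0.061) or Nur77 untreated replicate 1 (0.069) or 3 (0.17), and with no variance trend (0.06).

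The Hmgcs1 region inside Nim1k was also lower in the Nur77 line in both states. With LPS it stood at 1.14, 5.25 and 6.40 in Nur77 libraries, against 14.2, 16.6 and 27.0 in GFP libraries (limma, adjusted p = 0.011). Without LPS it stood at 23.6, 25.8 and 11.03 in Nur77 libraries, against 53.5, 56.0 and 50.97 in GFP libraries (adjusted p = 0.0082). The Nur77 and GFP libraries did not overlap in either state. With LPS the call was lost without GFP LPS replicate 3 (adjusted p = 0.069) or Nur77 LPS replicate 1 (0.096) and on unscaled percentiles (0.076), and without LPS it was lost without Nur77 untreated replicate 3 (0.065).

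Near Scd1, 2 regions passed a line comparison, each in 1 state only. The one 4299 bp away was higher without LPS, at 94.8, 95.1 and 94.5 in untreated Nur77 libraries, against 87.8, 89.5 and 85.97 in untreated GFP libraries (limma, adjusted p = 0.0046), and of the alternatives only the fit on unscaled percentiles ended that call (adjusted p = 0.061). The gene-end region was lower with LPS, at 36.0, 23.7 and 24.2 in Nur77 LPS libraries, against 56.5, 40.7 and 44.8 in GFP LPS libraries (adjusted p = 0.043). That second call was lost without GFP LPS replicate 1 (adjusted p = 0.2) or 3 (0.07), Nur77 LPS replicate 2 (0.15) or 3 (0.14), or Nur77 untreated replicate 3 (0.05), without both lists of lowest background height (0.17), on unscaled percentiles (0.082) and with no variance trend (0.091).

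The remaining calls were small or unsteady. The Sqle region inside Washc5 was lower without LPS, at 39.5, 38.7 and 35.0 in Nur77 libraries, against 47.0, 56.0 and 65.7 in GFP libraries (limma, adjusted p = 0.037). With LPS the Acaca region was higher, at 95.9, 95.9 and 97.3 in Nur77 libraries, against 93.9, 90.8 and 92.8 in GFP libraries (adjusted p = 0.034). The Acly start was lower, at 90.6, 89.0 and 89.1 in Nur77 LPS libraries, against 95.03, 94.1 and 93.3 in GFP LPS libraries (adjusted p = 0.048). Each lost its call without most single libraries of its groups. For Sqle these were GFP untreated replicates 2 and 3 and all 3 untreated Nur77 libraries (adjusted p = 0.062 to 0.25), for Acaca GFP LPS replicates 2 and 3 and all 3 Nur77 LPS libraries (0.057 to 0.15), and for Acly every library but Nur77 untreated replicate 2 (0.054 to 0.14). Other alternatives ended these calls too. Sqle missed the threshold on unscaled percentiles (0.053), with no variance trend (0.059) and with the background covariate (0.055), and Acaca with no variance trend (0.078). Acly missed it with lists of equal length (0.052), the strongest 20000 peaks (0.07), no variance trend (0.082) and without both lists of lowest background height (0.086).

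The region 8427 bp from Scd2 was higher with LPS, at 82.9, 88.5 and 86.5 in Nur77 libraries, against 73.1, 82.5 and 75.8 in GFP libraries, groups that were separate by a narrow margin (limma, adjusted p = 0.05 to 2 digits and under the threshold). It lost its call when any 1 library was left out other than GFP LPS replicate 2, Nur77 LPS replicate 1 and Nur77 untreated replicate 2 (adjusted p = 0.054 to 0.19), with a −log10 q of at least 5 or lists of equal length (0.05 each), with the strongest 20000 peaks (0.058), and without both lists of lowest background height or with no variance trend (0.12 each).

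Calls that separated the lines were all losses in the Nur77 line. Without LPS, 4 of 179 member regions outside chromosome 12 had a peak in 0 of 3 Nur77 lists but 3 of 3 GFP lists, as did 3.13% of all regions, and 0 the reverse (0.32%). With LPS the counts were 1 (2.01%) and 0 (0.315%). The losses without LPS lay inside Npc1 (list percentiles of 57.9, 64.8 and 64.0 in untreated GFP libraries), inside Pmvk (29.6, 33.4 and 1.97), inside Elovl6 (46.3, 41.9 and 43.2) and 2623 bp from Elovl6 (21.3, 41.9 and 31.3). The loss with LPS lay 2114 bp from Mylip (9.16, 41.1 and 37.5 in GFP LPS libraries). With a −log10 q of at least 5 the Pmvk and Mylip regions no longer separated the lines. The region inside Elovl6 is the one named above as a loss with LPS in the GFP line. That region and those inside Npc1 and near Mylip had a peak in GFP lists only. They passed the filter of at least 2 lists through that line alone, so their absence in the Nur77 line is partly set by how they were found.

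The shortest of the 12 lists was untreated Nur77 replicate 2, and the part of list length in these losses was not tested beyond leaving out lists. The total without LPS was 7, 7 and 8 when untreated Nur77 replicates 1, 2 and 3 were left out in turn. The total with LPS was 5 without GFP LPS replicate 1, 3 without GFP LPS replicate 3 or Nur77 LPS replicate 2 (2 gains and 1 loss each), and 4 without Nur77 LPS replicate 1. With treatments pooled, Fisher's exact test called 0 of 42 member regions outside chromosome 12 after adjustment and 0 of 19238 in all. At an unadjusted p under 0.05, 2 member regions, those inside Npc1 and 2623 bp from Elovl6 (exact p = 0.015 each, adjusted p = 0.19), were called less often in the Nur77 line, against 1269 of all regions, and 0 more often, against 129. Without GFP LPS replicate 1 this test called 2 member regions. The region inside Npc1 was kept through GFP lists alone, as said above.

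On chromosome 12, a region 1290 bp from Npc2 at chr12:84751341-84753269 gave the largest line difference of all member regions. Of the 4 shared Npc2 regions, 2 were lower in the Nur77 line without LPS (50%) and 1 with LPS (25%), which is to be read against the shares of that chromosome given above. Without LPS the region 1290 bp away stood at 28.9, 41.0 and 32.4 in Nur77 libraries, against 78.4, 73.3 and 72.1 in GFP libraries, and the normal score fell by 1.08 ± 0.19 (SE; limma, adjusted p = 0.00022). This call held in the 22 of 23 alternatives in which the region could be fitted. With LPS it stood at 32.2, 13.5 and 39.3 in Nur77 libraries, against 67.1, 39.2 and 62.1 in GFP libraries, with 1 Nur77 library just above the lowest GFP library (adjusted p = 0.0067). That call was lost without GFP LPS replicate 1 (adjusted p = 0.065) or Nur77 LPS replicate 2 (0.086), and with no variance trend (0.053).

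Without LPS the normal score of the Npc2 start fell by 0.47 in the Nur77 line (limma, adjusted p = 0.04), with percentiles of 99.4, 98.99 and 99.4 in Nur77 libraries, against 99.7, 99.9 and 99.8 in GFP libraries. It lost its call without GFP untreated replicate 2 or 3, any untreated Nur77 library or Nur77 LPS replicate 1 (adjusted p = 0.052 to 0.2), without both lists of lowest background height (0.1), with no variance trend (0.063), with the background covariate (0.087) and on unscaled percentiles (0.68).

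Whether the LPS response differed between the lines was tested with the interaction of line and LPS. It called 0 of 76 member regions and 0% of all 26378 regions after adjustment, and limma was the only tool run for it. At an unadjusted p under 0.05 there were 4 member regions and 1988 regions in all, and the lowest adjusted p was 0.518 among members and 0.142 over all regions. Regions that passed in 1 line only were therefore not shown to respond differently between the lines. Both LPS comparisons and both line comparisons share libraries, so their values are given side by side without a test of their overlap.

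Related genes outside the 34 were counted in the same way. A gene of the first list was left out after its results were known. Around 10 other genes of sterol synthesis and its control (Acat2, Ebp, Msmo1, Tm7sf2, Hsd17b7, Ggps1, Mbtps1, Mbtps2, Stard4 and Lbr), 16 of 28 regions were in all 12 lists. With LPS, 1 fell in the Nur77 line and 1 in the GFP line (6.25% each, against 6% and 8.57% of all regions), 0 rose, and 0 passed a line comparison. Around 16 further genes of fatty acid supply, elongation and storage, 15 of them with a region, 37 of 99 regions were in all 12 lists. With LPS, 3 fell (8.11%) and 0 rose in the Nur77 line, and 4 fell (10.8%) and 1 rose (2.70%) in the GFP line. These shares are set against the same background. Outside chromosome 12, 1 of their 32 shared regions was lower in the Nur77 line without LPS and 0 passed with LPS.

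In all, 18 of the 34 genes had a region that passed at least 1 of the 4 comparisons, and 16 did not. Npc2 is among the 18, through line comparisons on chromosome 12 only. The same count was not made over all genes, so it cannot be read as a trait of the members. Near the 10 kb limit, the members farthest from their genes were regions 9446 bp from Pmvk, 9454 bp from Scd1 and 9589 bp from Mvd, in 2, 3 and 3 lists. Just outside it lay regions 10333 bp from Fads1, 10418 bp from Insig2 and 10884 bp from Scd1, in 12, 2 and 10 lists. Of the 188 regions, 46 overlap the span of a gene outside the list, so assignment to a member rests on distance alone.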

How the data were processed

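ATAC-seq libraries of 12 samples in 4 groups of 3, taken from titles and characteristics, were given as 1 narrowPeak list each. Nuclei were tagmented for 45 min at 37 °C and the fragments kept were below 700 bp, per the labels' protocols. The submitters' processing notes name the build mm10 and the tools cutadapt 2.6 and DiffBind 3.0.15. Which aligner and which peak caller made the lists is not given in the sources used here. The names of the deposited peaks carry a mapping quality of 20, mitochondrial removal, deduplication and a q value cutoff, 0.001. Per peak, the authors' lists give a whole-number score, a fold enrichment (ratio) at the summit, and −log10 p and −log10 q. These are the authors' own values and were used only to rank, filter or describe peaks within a list. The lists hold no read totals, so depth is unknown.

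Regions were merged with pandas 2.3.3 and numpy 2.4.6 under Python 3.11.15, exact tests came from scipy 1.17.1, and genes were placed with a RefSeq gene table of the same build that gives no strand. Where a library had several peaks in a region, the strongest was used. Normal scores of ranks were fitted with limma 3.58.1 in R 4.3.3 (group means, empirical Bayes with trend), and the code was tested on simulated data. Calls were tested with Fisher's exact test over regions in 4 to 8 lists. The background height of a list is the value which, raised by 1 and multiplied by the folds, makes them whole numbers of reads (tolerance 0.1), on the assumption that 1 was added to the height and to the background before dividing. Figures used matplotlib 3.10.9.

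Regions named are each gene's start region, each region that passed a test, with 1 exception, and regions called in 3 of 3 against 0 of 3 libraries. The members, lists and tests were chosen with earlier results of these data known. Alternatives were a −log10 q of at least 5, lists of equal length, the strongest 20000 peaks, a 50 bp overlap, all merged regions, distances of 2 and 50 kb, each library left out, chromosome 12 included, a replicate block, ranking by fold, percentiles unscaled, no variance trend and background height as covariate. Leaving out both lists of lowest background height was added after seeing the data. The exception, which passed the LPS fit in the GFP line, is counted but not reported here, and a related gene was left out of the sterol list after its results were known.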

Additional observations from a re-analysis of the deposited data

How the results depend on the processing

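Of the counts recomputed under the alternatives, 219 stayed within 1.5 times the main count and 57 did not. The balance of higher and lower regions between the lines turned in some runs. In the rank fit it was 1 higher and 0 lower without LPS without Nur77 untreated replicate 3, and with LPS 6 higher and 4 lower without Nur77 untreated replicate 2 and 1 higher and 0 lower with the strongest 20000 peaks. Separating calls with LPS were 2 gains and 1 loss without GFP LPS replicate 3 or Nur77 LPS replicate 2. Of 895 recomputations of the 40 named rank calls, 767 kept the call and 128 kept the sign but missed the threshold. In every alternative that could be run for them, 13 calls held. In what follows, separating calls are those in 3 of 3 against 0 of 3 libraries, and line counts leave out chromosome 12. With a −log10 q of at least 5, separating calls were 5 for LPS in the GFP line and 0 for the lines with LPS. With lists of equal length there were 111 member regions, 1 separating call between the lines without LPS, 1 region past the pooled LPS call test and 3 past the rank fit between the lines with LPS. With the strongest 20000 peaks there were 71 regions, separating calls of 5 (LPS, GFP line), 1 and 2 (lines without and with LPS), 1 region past the pooled LPS call test, and rank counts of 6 and 8 for LPS in the Nur77 and GFP lines and 2 and 1 for the lines without and with LPS. Leaving out both lists of lowest background height gave separating calls of 12 (LPS, Nur77 line) and 7 and 5 (lines without and with LPS). Unscaled percentiles gave 2 for the lines without LPS, and no variance trend gave 2 and 2 for the lines without and with LPS. Within 2 kb, 0 separating calls were left between the lines with LPS, and rank counts were 7 and 9 for LPS in the Nur77 and GFP lines and 1 for the lines without LPS. Within 50 kb there were 399 regions, separating calls of 11 (LPS, GFP line), 10 and 3 (lines without and with LPS), and rank counts of 28 and 30 for LPS in the Nur77 and GFP lines, of which 19 and 19 fell. Leaving out 1 library gave separating calls of 4 to 12 and 3 to 13 for LPS in the Nur77 and GFP lines, 4 to 8 and 1 to 5 for the lines without and with LPS, 0 to 2 in the pooled line call test, and rank counts of 7 to 12 and 10 to 19 for LPS in the Nur77 and GFP lines, 1 to 4 and 1 to 10 for the lines without and with LPS, and 0 for the interaction. The causes were not tested, beyond the fewer peaks, regions or libraries that some alternatives use by construction.

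Same-numbered libraries of different groups did not deviate together (correlations between −0.157 and 0.144, against −0.146 to 0.218 for different numbers), and 5 of 12 libraries correlated best with their own number. A fit with the replicate number as a block gave 12 and 17 regions for LPS in the Nur77 and GFP lines, 4 and 5 for the lines without and with LPS, and 0 for the interaction.

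Depth is unknown, and a missing call in a short list can be a weak peak below that list's threshold. Ranks within a list cannot show a change shared by all regions. Distance assigns regions to genes, and no expression was measured here.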
